A study of Homo sapiens with 6 samples.

Results

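Netrins and their receptors were examined after targeting of OTX2 in the human medulloblastoma cell line D283. OTX2 is a homeobox gene that acts in forebrain, retina and cerebellum development. The set was chosen by gene symbol, with earlier results of these data known. It held 9 of the 50883 genes in the deposited count table. These were the netrins NTN1, NTN3 and NTN4, the receptors DCC and NEO1 (neogenin), and the receptors UNC5A, UNC5B, UNC5C and UNC5D. Cultures received a lentivirus that expressed GFP and carried either a non-targeting control guide RNA or a guide RNA against OTX2, and total RNA was taken after 7 days from 3 control and 3 OTX2 knockout cultures. All 6 cultures share the cell line, the vector and GFP. How many guides were used, where the nuclease came from, what share of cells was edited and whether batches existed is not given in the sources used here. Nothing in the labels says that clones were picked. Because the replicates are cultures of 1 line, the tests weigh a difference against the spread between cultures only. That each culture was infected separately is not assumed here. In RNA from whole cultures, fewer cells with a transcript and less transcript per cell cannot be told apart.

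Netrins are secreted proteins related to laminins that steer growing axons and migrating neurons. DCC and its relative neogenin mediate attraction to netrin-1 and can take part in repulsion, whereas UNC5 receptors mediate repulsion, alone or in complex with DCC. Both DCC and the UNC5 proteins are also known as dependence receptors, which can promote cell death when no ligand is bound, and in the cerebellum UNC5C is known for keeping granule cell precursors within their territory.

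Libraries held 54540645 to 62166870 counts, and levels are given as CPM, counts scaled to a common library size with TMM factors (the trimmed mean of M values). A count of 3 corresponded to 0.0471 to 0.0563 CPM. Control replicate 1 stood apart in its mitochondrially encoded transcripts, which took 0.764% of its counts. They took 0.440% and 0.449% of control replicates 3 and 2, and 0.531% to 0.601% of the knockout libraries. Without control replicate 1, the log2 fold changes were 0.88 for NEO1, 1.05 for DCC, 4.15 for UNC5A, 0.97 for UNC5B and 1.04 for UNC5D, and all 5 were still called. The calls of NTN4 (0.25, edgeR adjusted p = 0.0810) and UNC5C (-0.13, edgeR adjusted p = 0.0619) were lost without that library. OTX2 RNA itself ranged from 909 to 1002 CPM in control and from 765 to 887 CPM in knockout, and an edit need not lower the transcript. All 8 markers fixed for a Group 3 medulloblastoma profile were present in both groups and all 8 were lower in knockout, with a summed level of 4506 to 4827 CPM in control and 3155 to 3727 CPM in knockout. OTX2, the targeted gene, is among these 8. Markers of other cell types also moved: the sum of 8 mesenchymal markers was 19.2 to 20.7 CPM in control against 29.1 to 29.6 CPM in knockout (3 of 5 tested higher, 0 lower), and that of 8 astroglial markers was 224 to 261 CPM against 316 to 363 CPM (2 of 5 higher, 1 lower). Most of the astroglial sum was GJA1, which rose from a mean of 154 to 279 CPM, while SLC1A3 fell from 82.4 to 49.7 CPM. The 8 immune markers summed to 1.18 to 1.25 CPM against 0.774 to 0.942 CPM (1 of 4 higher, 1 lower), with CD3E at 0. The part of these cell types in the results was not tested.

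Most of the receptors rose in the knockout group, while the netrins NTN3 and NTN4 moved little and the most abundant receptor, UNC5C, fell slightly. NTN1 had too few counts to judge. Of the 9 genes, 8 reached the test, 6 of them were higher in knockout, 1 was lower and 1 was not called (edgeR's quasi-likelihood test, adjusted p under 0.05 after Benjamini-Hochberg correction over all genes). Over all 18420 tested genes, 39.7% were called, 21.2% higher and 18.5% lower. The low-count filter asks for about 0.164 CPM in at least 3 libraries, and UNC5A passed it only through the knockout group, so its passing required a difference. Without UNC5A, 5 of 7 genes were higher, 1 was lower and 1 was not called. Control and knockout values were fully separated in 7 of the 8 genes, or 6 of 7 without UNC5A, where 49.2% of all genes tested were separated. Because the genes were chosen with earlier results of these data known, these counts describe the set and are no test of it.

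**Figure D1:**
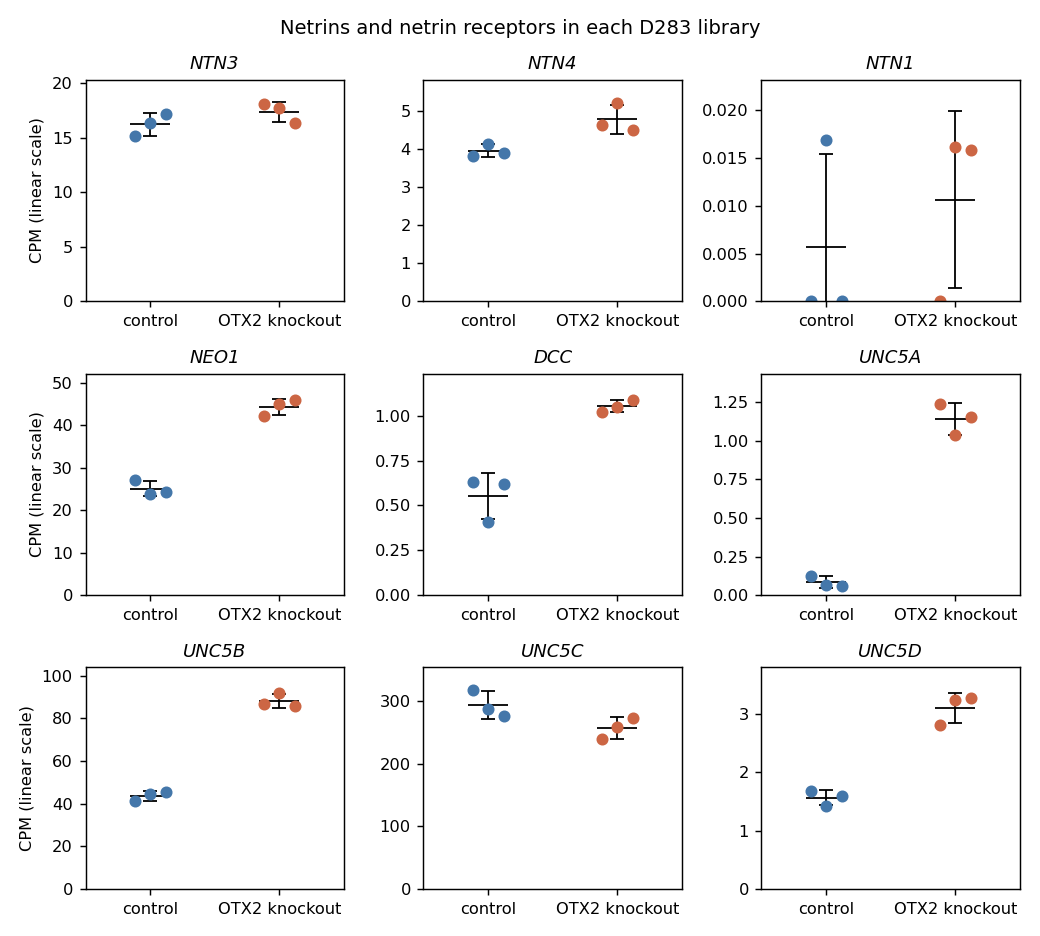
Level of each of the 9 genes in CPM (linear axis from 0, scaled per panel) in the 3 control (blue) and 3 OTX2 knockout (orange) libraries, with the mean and SD in black. The knockout libraries lie above every control for NEO1, DCC, UNC5A, UNC5B, UNC5D and NTN4, below every control for UNC5C, and overlap the controls for NTN3. The NTN1 points are 0 or 1 count each.

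Among the ligands, netrin-1 RNA was all but undetected. NTN1, on chromosome 17 (9021542 to 9244000, plus strand, GRCh38 in GENCODE release 29), encodes the best studied netrin, the ligand of DCC, neogenin and the UNC5 receptors. It had 0, 1 and 0 counts in control replicates 1 to 3 and 0, 1 and 1 counts in knockout replicates 1 to 3. Every library lay under 3 counts, so no fold change is given and no difference was detectable at this depth.

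NTN3, on chromosome 16 (2471499 to 2474145, plus strand), encodes a secreted netrin close to netrin-1. Its levels were 15.1, 16.4 and 17.2 CPM in control and 18.1, 17.7 and 16.4 CPM in knockout. The groups overlapped, and the log2 fold change of 0.10 (SE 0.07) did not pass (edgeR adjusted p = 0.253).

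NTN4, on chromosome 12 (95657807 to 95791152, minus strand), encodes a netrin of basement membranes that binds laminin. Its levels were 3.81, 4.13 and 3.88 CPM in control and 4.62, 5.21 and 4.49 CPM in knockout. The groups did not overlap, and NTN4 rose 1.21-fold (log2 fold change 0.27, SE 0.10, edgeR adjusted p = 0.0337). The call lay close to the threshold. It was lost without control replicate 1 (adjusted p = 0.0810), control replicate 2 (0.0507), control replicate 3 (0.0849) or knockout replicate 2 (0.173), and with DESeq2 (0.128). NTN4 is also made by endothelial cells, and the summed level of 8 endothelial markers was 2.56 to 4.05 CPM in control and 5.61 to 6.67 CPM in knockout. Most of that sum was VWF, CDH5 had 0 counts over the controls and 31 over the knockout cultures, and 2 of 3 tested endothelial markers were higher in knockout. The part of these markers in the NTN4 change was not tested.

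Neogenin and DCC both rose, from very different levels. NEO1, on chromosome 15 (73051710 to 73305206, plus strand), encodes neogenin, which binds netrins and the repulsive guidance molecules (RGMs). Its levels were 27.2, 23.9 and 24.2 CPM in control and 42.3, 45.0 and 46.0 CPM in knockout. Every knockout library lay well above every control. NEO1 rose 1.77-fold (log2 fold change 0.82, SE 0.06, edgeR adjusted p = 3.91e-08).

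DCC, on chromosome 18 (52340172 to 53535903, plus strand), encodes the receptor first described as deleted in colorectal carcinoma. It was a low-level transcript, with 35, 24 and 33 control counts and 65, 65 and 69 knockout counts. This corresponded to 0.632, 0.406 and 0.619 CPM in control and 1.02, 1.05 and 1.09 CPM in knockout. The groups did not overlap, and the lowest value was that of control replicate 2. DCC rose 1.91-fold (log2 fold change 0.94, SE 0.20, edgeR adjusted p = 0.00173), and against a 1.5-fold change it did not pass (adjusted p = 0.178 by glmTreat). The ratio of NEO1 to DCC per kilobase of exon was 76.2 ± 16.8 in control and 68.3 ± 1.08 in knockout (SD, n = 3 per group), with overlapping values (exact permutation test, two-sided p = 0.7).

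The UNC5 receptors did not move as a block: UNC5A, UNC5B and UNC5D rose and UNC5C did not. UNC5A, on chromosome 5 (176810477 to 176880898, plus strand), encodes a netrin receptor with a death domain, found mainly in neurons. It had 7, 4 and 3 control counts and 79, 64 and 73 knockout counts, that is 0.126, 0.0677 and 0.0563 CPM against 1.24, 1.03 and 1.15 CPM. The controls sat near the limit of detection and the knockout libraries well above it. UNC5A was 13.7-fold higher in knockout, with a 95% counting interval of 7.99 to 25.5 for the ratio of the summed counts (exact binomial, counting error only). The fitted log2 fold change was 3.74 (SE 0.29, edgeR adjusted p = 1.02e-07), and it was 3.54 to 4.15 when each library was left out in turn. UNC5A had passed the low-count filter only through the knockout group, so being tested already required a difference. UNC5A shares 30 bases of exon with HK3, which had 0 to 3 counts in any library.

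UNC5B, on chromosome 10 (71212570 to 71302864, plus strand), encodes a netrin receptor known for its part in vessel patterning and as a target of p53. Its levels were 41.0, 44.7 and 45.3 CPM in control and 87.0, 92.0 and 85.7 CPM in knockout. The lowest knockout library was far above the highest control. UNC5B rose 2.02-fold (log2 fold change 1.02, SE 0.05, edgeR adjusted p = 8.58e-10), the smallest adjusted p of the 8 tested genes. The endothelial marker levels given beside NTN4 moved in the same direction, and their part in this change was not tested. KDR, another defining endothelial gene, averaged 0.498 CPM in control and 0.423 CPM in knockout.

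UNC5D, on chromosome 8 (35235457 to 35796550, plus strand), encodes a receptor that also binds the FLRT proteins and acts in the migration of cortical neurons. Its levels were 1.68, 1.42 and 1.59 CPM in control and 2.81, 3.23 and 3.27 CPM in knockout. The groups were well separated. UNC5D rose 1.98-fold (log2 fold change 0.99, SE 0.13, edgeR adjusted p = 1.64e-05).

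UNC5C, on chromosome 4 (95162504 to 95549206, minus strand), encodes the receptor whose loss in the mouse lets cerebellar granule cells stray into the midbrain. Its levels were 318, 287 and 276 CPM in control and 240, 259 and 274 CPM in knockout. The lowest control and the highest knockout library nearly met. UNC5C fell by 0.19 on the log2 scale (SE 0.06, edgeR adjusted p = 0.0217), and its control mean was 1.14-fold the knockout mean. The call was lost without control replicate 1 (log2 fold change -0.13, adjusted p = 0.0619), knockout replicate 1 (-0.14, 0.124) or knockout replicate 2 (-0.20, 0.0660), and with library totals in place of TMM (-0.11, 0.155).

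**Figure D2:**
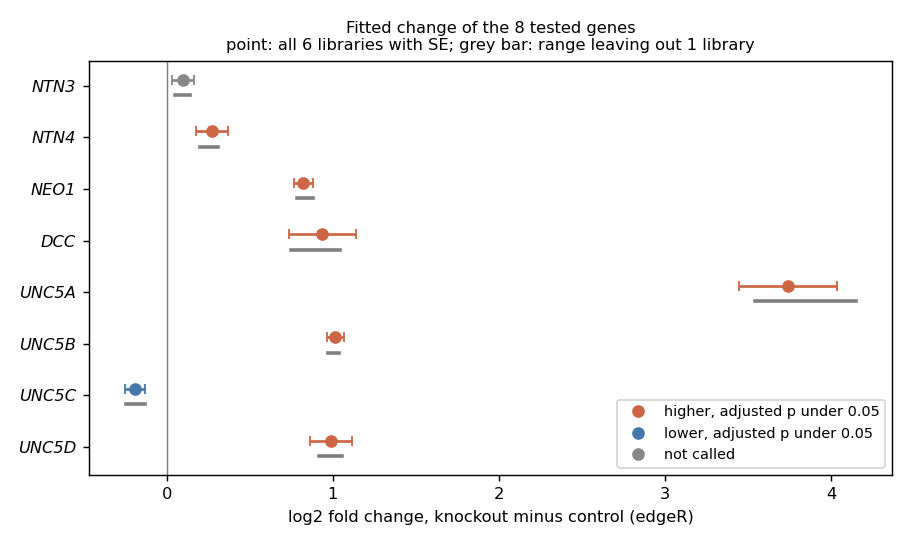
Fitted log2 fold change, knockout minus control, of the 8 tested genes (point, bar = SE), with the range over the fits that leave out 1 library (grey). UNC5A stands at 3.74, NEO1, DCC, UNC5B and UNC5D lie between 0.82 and 1.02, and NTN3, NTN4 and UNC5C lie close to 0.

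The makeup of the receptors was compared per length, as CPM per kilobase of annotated exon, which does not take account of which isoforms are present. In control the order was UNC5C (27.5), NTN3 (8.18), UNC5B (6.38), NEO1 (3.09), NTN4 (0.946), UNC5D (0.145), DCC (0.0420), UNC5A (0.0191) and NTN1. No neighbours in this order overlapped over the control libraries, although DCC and UNC5A rest on few counts. In knockout UNC5B (12.9) stood above NTN3 (8.76), and UNC5A (0.262) stood above DCC (0.0801). UNC5D (0.287) and UNC5A overlapped in knockout and did not differ beyond their spread, while with the longest transcript as the length UNC5D stood above UNC5A without overlap.

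The share of UNC5B among the 4 UNC5 receptors grew and that of UNC5C shrank. Per length, UNC5B made up 16.7%, 19.4% and 20.3% in the controls and 35.6%, 35.2% and 32.3% in the knockout libraries. UNC5C made up 80.7% ± 1.88 in control and 64.2% ± 1.79 in knockout (SD, n = 3 per group). The ratio of UNC5C to UNC5B was 4.97, 4.12 and 3.90 in control and 1.77, 1.80 and 2.05 in knockout. UNC5A and UNC5D together stayed a small part, at 0.700% and 0.763% of the UNC5 receptors in knockout.

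The summed level of the UNC5 receptors overlapped between groups, at 34.0 ± 1.74 CPM per kilobase in control and 37.6 ± 1.63 in knockout (SD, n = 3 per group; exact permutation test, two-sided p = 0.2). That of DCC plus NEO1 was 3.13 ± 0.234 in control and 5.55 ± 0.237 in knockout. Nearly all of it was NEO1, at 3.09 in control and 5.47 in knockout, against 0.0420 and 0.0801 for DCC. The ratio of UNC5 receptors to DCC plus NEO1 was 10.6, 11.3 and 10.8 in control and 6.75, 6.80 and 6.74 in knockout. It was lower in every knockout library than in every control, as was the share of UNC5C, and each gave p = 0.1 in the two-sided exact permutation test, the smallest that 3 against 3 libraries allows. These ratios are taken within a library and do not depend on its scaling.

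**Figure D3:**
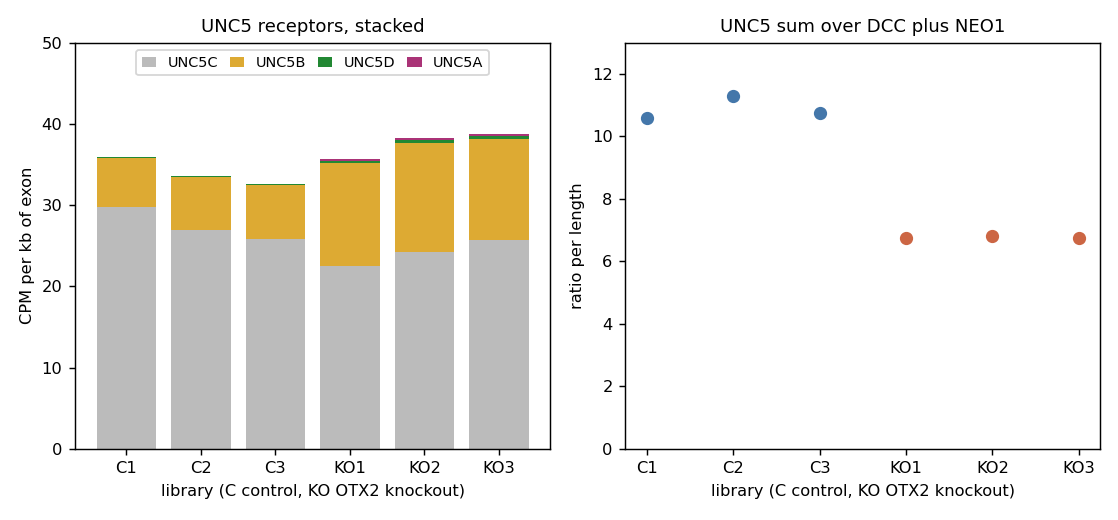
Left, CPM per kilobase of exon of the 4 UNC5 receptors stacked in each library (C1 to C3 control, KO1 to KO3 OTX2 knockout). Right, the ratio of their sum to DCC plus NEO1. The UNC5B part grows from 6.38 to 12.9 on average while the UNC5C part shrinks slightly, and the ratio lies between 10.6 and 11.3 in the controls and between 6.74 and 6.80 in the knockout libraries.

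Upstream sequence is shown for the receptors that rose and have an entry in the RefSeq promoter table (GRCh38.p14), since these genes moved in the same direction. The table held 5 of the 9 genes, DCC, NEO1, NTN4, UNC5A and UNC5C. Each sequence runs 5′ to 3′ on the plus strand up to the base before the outermost exon in GENCODE release 29, and capitals mark GC boxes. DCC is chr18:52339947-52340171, NEO1 chr15:73051652-73051709 and UNC5A chr5:176810309-176810476.
DCC: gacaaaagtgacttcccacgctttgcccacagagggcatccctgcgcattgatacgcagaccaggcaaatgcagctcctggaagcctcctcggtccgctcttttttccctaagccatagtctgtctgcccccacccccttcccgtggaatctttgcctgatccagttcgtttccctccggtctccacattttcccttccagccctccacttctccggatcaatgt
NEO1: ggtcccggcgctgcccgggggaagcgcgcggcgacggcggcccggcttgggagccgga
UNC5A: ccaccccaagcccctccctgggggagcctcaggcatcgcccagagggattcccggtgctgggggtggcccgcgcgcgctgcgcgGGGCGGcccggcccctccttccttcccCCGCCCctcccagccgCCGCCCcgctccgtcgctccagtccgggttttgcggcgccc

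In the 300-base windows of that table, from 250 bases before to 50 bases after the RefSeq start, 4 motifs were searched on both strands. TAATCC, the site of OTX and CRX homeodomains, was in none of the windows of the 5 genes and in 6.36% of all 35116 windows. The E-box CAGATG (14.7% of windows) and the TATA box TATAAA (11.5%) were also in none of them. The GC box GGGCGG was in the windows of NEO1 and UNC5A and in 1 of the 2 windows of NTN4, the one at its downstream start, and it was in 45.0% of all windows. None of the motifs contains another. A match is only a run of letters, and its absence says only that the letters are not in this window.

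Among the genes with a level pattern most like that of a receptor across the 6 libraries, TP73, a p53 family transcription factor, came first for UNC5B (Pearson's r of log2 CPM 0.9999), at 12.1 CPM in control, against 36.2 CPM in knockout. FAM129B and RAB26 followed. For NEO1 the closest were LRIG1, a regulator of growth factor receptors (r = 0.9992, 15.9 CPM in control and 22.7 CPM in knockout), GULP1 and RNF165. The 6 libraries form 2 groups and 12938 genes were compared, so high values are common: 1411 genes exceeded 0.95 with UNC5B and 1202 with NEO1. These correlations are descriptions without a test, and the libraries share 1 cell line.

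Among other ligands and partners of the same receptors, DRAXIN, FLRT3, FLRT1 and SLIT2 rose. Of 14 listed, 11 were tested, 6 were higher, 1 was lower and 4 were not called, with a median log2 fold change of 0.42 against 0.01 over all tested genes. FLRT1 and NTNG2 passed the low-count filter only through the knockout group, and over the other 9, 4 were higher, 1 was lower and 4 were not called, with a median of -0.04. Over all tested genes 21.2% were higher and 18.5% lower. DRAXIN, a secreted guidance protein that binds DCC and netrin-1, was at 0.740, 1.07 and 0.788 CPM in control, against 11.8, 13.3 and 16.5 CPM in knockout. It rose 16.1-fold (log2 fold change 3.99, SE 0.16, edgeR adjusted p = 5.34e-11).

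The FLRT proteins are membrane ligands of the UNC5 receptors. FLRT3 rose 2.27-fold, from 5.60 ± 0.831 CPM to 12.7 ± 0.483 CPM (SD, 3 libraries per group), and FLRT1 was 9.16-fold higher, with 18 counts in all controls and 184 in all knockout libraries. FLRT2, named after its values were seen, was at 26.5 ± 1.92 and 24.7 ± 0.272 CPM and was not called. SLIT2, a ligand of ROBO receptors that bears on the DCC response, rose 2.02-fold. The proteoglycan GPC3, a partner of UNC5D, was the lower gene, from 7.14 ± 0.419 to 5.65 ± 0.506 CPM. Of the RGM ligands of neogenin, named after their values were seen, RGMA rose 1.34-fold, and RGMB, at 28.4 ± 0.418 and 27.7 ± 0.333 CPM, was not called.

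In the list of other netrin receptors, co-receptors and their relatives, ITGA3, ITGA6 and MCAM rose and DSCAML1, ADORA2B and ROBO1 fell. Of 13 listed, 12 were tested, 3 were higher, 3 were lower and 6 were not called (median log2 fold change -0.04), shares near those over all tested genes (21.2% higher and 18.5% lower). With library totals in place of TMM, 4 were higher and 1 was lower, where 5210 of all 18420 tested genes were higher and 2034 lower. ITGA3, an integrin chain reported to bind netrin, rose 2.82-fold, and ITGA6 rose 1.45-fold. MCAM, an adhesion molecule also described as a netrin-1 receptor, rose 1.60-fold, but its exons overlap CBL and its count is uncertain. DSCAML1, a relative of the netrin receptor DSCAM, went down from 45.5 ± 4.23 CPM to 30.8 ± 2.26 CPM (SD, 3 libraries per group). ADORA2B, an adenosine receptor reported to act with DCC, fell by 0.28 on the log2 scale and ROBO1 by 0.18. The ADORA2B call was lost without control replicate 2 or with library totals alone, and the ROBO1 call without knockout replicate 1 or 2 or with library totals alone. DSCAM, which falls outside the rule for named genes and was picked with its values known, had 8 control and 39 knockout counts and did not reach the test.

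Among intracellular effectors FYN rose and PITPNA and TRIO fell. Of 32 listed, 30 were tested, 6 were higher, 10 were lower and 14 were not called, with a median log2 fold change of -0.0013, where 21.2% of all tested genes were higher and 18.5% lower. FYN, a Src family kinase that phosphorylates DCC, rose 1.80-fold, from 30.6 ± 1.80 CPM to 55.2 ± 3.54 CPM, and SRC rose 1.27-fold. DAPK1, a kinase linked to death signalling by UNC5 receptors, rose 1.32-fold, and PPP2R1B, a phosphatase subunit linked to UNC5B, rose 1.19-fold with exons that overlap SIK2.

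PITPNA, a lipid transfer protein that binds DCC, went down from 100.2 ± 7.96 CPM to 63.1 ± 1.47 CPM (SD, 3 libraries per group). The guanine nucleotide exchange factor TRIO fell from 455 ± 15.2 to 324 ± 19.6 CPM. SIAH2 and SIAH1, of the ubiquitin ligase family that targets DCC for degradation, fell by 0.46 and 0.37 on the log2 scale, and exons of SIAH1 overlap LONP2. With library totals in place of TMM the effector counts turned to 10 higher and 6 lower, where 5210 of all 18420 tested genes were higher and 2034 lower. TUBB3, a tubulin that binds DCC picked with its values known, is listed at 0 counts in all 6 libraries. AC092143.1 overlaps 35.8% of its annotated exon bases, and how reads in shared exons were counted is not given. The 0 therefore cannot be read as absence of the transcript.

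**Figure D4:**
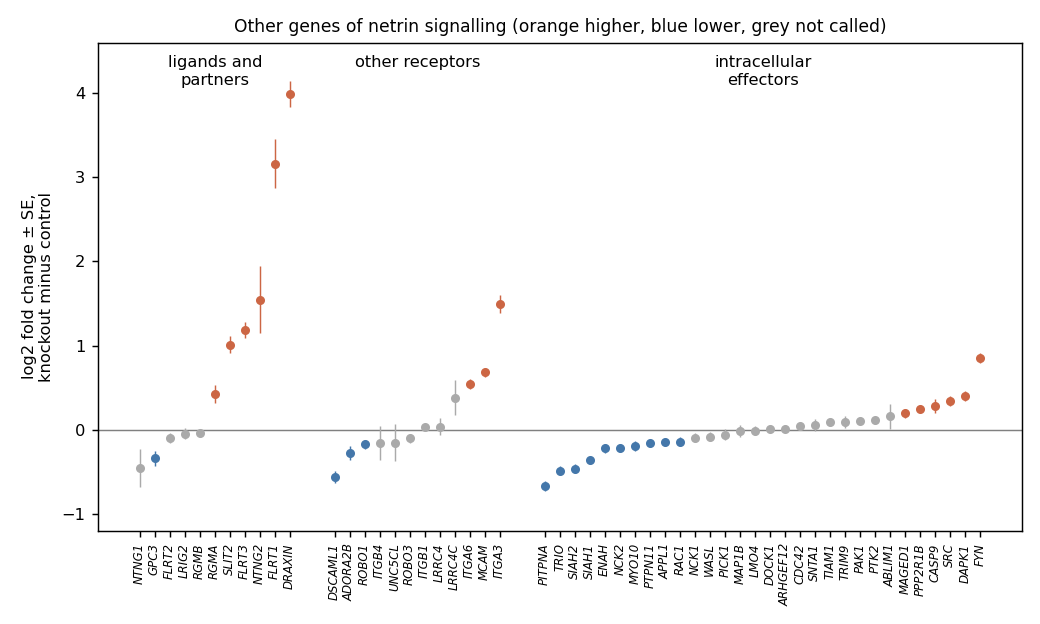
Fitted log2 fold change with SE, knockout minus control, of the 53 tested genes of the 3 lists of other netrin signalling genes, ordered within each list. DRAXIN (3.99) and FLRT1 (3.16) stand highest, most effectors lie near 0, and PITPNA (-0.67) is the lowest.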

How the data were processed

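Total RNA was sequenced from 6 D283 cultures, 3 control and 3 OTX2 knockout, grouped by the genotype in the labels. The authors deposited a table of raw counts per gene symbol, with 1 column per library, matched to libraries by title. Per the submitters' processing notes, STAR and hg38 were used. Which counting program, annotation, strand setting and filters were applied is not given in the sources used here, so reads in overlapping exons cannot be assigned with certainty.

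Counts were analysed in R 4.3.3 with edgeR 4.0.16: filterByExpr, TMM scaling, and a quasi-likelihood F test of knockout against control over 18420 genes, with Benjamini-Hochberg adjustment and a threshold of 0.05. CPM used TMM-scaled library sizes, and fold changes are ratios of mean CPM. Coordinates, exon lengths and overlaps came from GENCODE release 29. An overlap is reported where the other gene held over 10% of the count, apart from HK3 and the overlap of TUBB3. All 59 other listed genes were in the table, HJV under an older symbol. Scripts were tested on simulated data.

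The 9 genes and the lists were chosen with earlier results of these data known. Named genes were the 9, up to 4 called genes per direction and list with the smallest adjusted p, and the 3 genes most alike in level to UNC5B and NEO1, the called genes with the smallest p, among genes with a mean count of at least 100. Alternatives were other scalings, filters, thresholds and tests (DESeq2 1.42.0, limma-voom in limma 3.58.1, glmTreat), and leaving out each library. The longest transcript as gene length was added after seeing the data.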

Additional observations from a re-analysis of the deposited data

How the results depend on the processing

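Direction was kept in all 112 comparisons of the 8 tested genes with the main fit, under 14 alternatives each. The threshold of 0.01 and glmTreat keep the log2 fold change of the main fit, so direction could not change there. In 98 of the 112 the gene stayed on its side of the threshold. NTN3, not called in the main fit, could not become called under these stricter settings. The calls of NEO1, UNC5A, UNC5B and UNC5D held in all 14. Of these, UNC5A passed the filter of the main fit only through the knockout group. For DCC the call was lost with glmTreat against a 1.5-fold change (log2 fold change 0.94). For NTN4 it was lost with DESeq2 (0.26), with glmTreat and with a threshold of 0.01 (both 0.27), and leaving out 1 library gave 0.20 to 0.31. For UNC5C it was lost with library totals alone (-0.11), and with glmTreat and a threshold of 0.01 (both -0.19), and leaving out 1 library gave -0.24 to -0.13. The number of the 9 genes called higher was 4 to 6 in all settings. The number called lower was 0 with library totals alone, glmTreat and a threshold of 0.01, and 0 to 1 leaving out 1 library. Of all 18420 tested genes, 2034 were lower with library totals alone, 157 with glmTreat and 2284 with a threshold of 0.01. With no filter, NTN1 had an adjusted p of 0.831.

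Against a 1.5-fold change, 4 ligands and partners were higher and 0 lower. For other receptors and co-receptors 1 was higher and 0 lower, and for effectors 1 was higher and 0 lower. In that setting 1050 of all 18420 tested genes were higher and 157 lower, so few lower calls were available to any list. With library totals alone, 4 other receptors and co-receptors were higher and 1 lower, and 10 effectors were higher and 6 lower. Over all tested genes that setting gave 5210 higher and 2034 lower. With a threshold of 0.01, 3 other receptors and co-receptors were higher and 1 lower, where 2900 of all tested genes were higher and 2284 lower. The share of all called genes that were higher was 53.4% with TMM and 71.9% with library totals alone. The rise in the share of UNC5B (15.6 percentage points) was 14.5 to 16.6 leaving out 1 library and 14.9 by longest transcript. No paired analysis was possible because the library titles run in a single series over both groups and link no control to a knockout library. The replicate numbers used here follow the order of the titles within each group. Genes with few counts, DCC, UNC5A and NTN1, are limited by counting error.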
